A study of Mus musculus with 8 samples.

Results

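The crypt base stem cell markers are 10 genes, Lgr5, Olfm4, Ascl2, Smoc2, Slc12a2, Rgmb, Tnfrsf19, Cdca7, Lrig1 and Prom1, out of 19938 genes measured on 8 Affymetrix arrays. They were chosen by name, with earlier results of these data known. Each was read through the 1 probe set on the array that names that gene alone. Mki67, Top2a and Ccnb2, which are genes of dividing cells, were set beside them, because a loss of crypt cells from the isolate would lower stem and dividing cells together. The levels are deposited intensities after quantile normalization, given on the log2 scale, so a difference of -1 is a 2-fold lower level.

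The RNA is that of intestinal epithelial cells from male ICR mice, 8 weeks old, isolated 4 days after the small intestine had been transfected in the living animal. The siYAP/TAZ group (n = 3) received siRNAs for YAP and TAZ, and its control, siGFP (n = 3), received an siRNA for GFP. The shYAP/TAZ sample (n = 1) received plasmids expressing shRNAs for YAP and TAZ, and its control, shLacZ (n = 1), received a plasmid expressing an shRNA for LacZ. The labels give each control array 1 knockdown array, which makes 3 siRNA pairs and 1 shRNA pair. They do not say what the arrays of a pair share, which share of the cells took up the nucleic acid, or whether arrays came from separate mice. The p-values therefore rest on the spread among these arrays alone, part of which can be technical. In bulk RNA, fewer cells of a type and less RNA per cell cannot be told apart.

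YAP and TAZ are coactivators that the Hippo pathway holds back and that work through TEAD factors at DNA. Crypt base columnar cells are the dividing stem cells of the small intestine. They sit between Paneth cells and depend on Wnt ligands and R-spondins, which Lgr5 and related receptors sense. Their daughters divide further up the crypt before they differentiate, so mitotic genes mark the whole dividing crypt and the stem cell markers mark its base. Some of the 10 markers, such as Olfm4 and Lgr5, are close to limited to the base, while others, such as Cdca7 and Lrig1, reach further up the crypt.

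Some facts of the series bear on every value here. The 10 epithelial markers were bright on these arrays, with mean levels between the 75.7th percentile (Cdx1) and the 99.9th percentile of all genes. On the first principal component (56.8% of the variance), siYAP/TAZ 2, siYAP/TAZ 3 and siGFP 3 had scores of 64.5, 57.5 and 63.5, and the other 5 arrays lay between -70.3 and -1.67. These 3 arrays stand apart, and results are given with and without them. Of the targeted genes, Yap1 had levels of 7.41, 6.78 and 7.47 in siYAP/TAZ and 7.16, 7.64 and 7.20 in siGFP, a difference of -0.12 ± 0.32 (SE). Wwtr1, which encodes TAZ, differed by -0.28 ± 0.36, and both had a limma adjusted p of 1.00. In the shRNA pair the differences were -0.09 for Yap1 and 0.06 for Wwtr1. Neither targeted mRNA was thus measurably lower, and knockdown below is the name on the label.

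Olfm4 and Lgr5 lay lower in the knockdown array of all 4 pairs. Olfm4 encodes olfactomedin 4, a secreted glycoprotein, and its pair differences were -2.32, -2.21 and -0.76 in the 3 siRNA pairs and -1.90 in the shRNA pair. Lgr5, the R-spondin receptor by which crypt base columnar cells were defined, had pair differences of -1.66, -2.17, -0.53 and -1.06. Slc12a2 and Rgmb also lay lower in all 4 pairs. Ascl2 and Smoc2 were lower in 3 pairs and higher in siRNA pair 3, by 0.38 and 0.45. Tnfrsf19, Lrig1 and Prom1 stayed close to their controls in most pairs. No marker passed a limma adjusted p of 0.05 in the comparison of siYAP/TAZ with siGFP or in the fit of the 4 pairs.

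Olfm4 (probe set 10416689) had log2 levels of 9.21, 9.16 and 7.24 in siYAP/TAZ 1, 2 and 3, against 11.53, 11.37 and 8.00 in siGFP 1, 2 and 3. The level in shYAP/TAZ was 8.56, against 10.46 in shLacZ. Replicate 3 was low in both siRNA groups, so that siGFP 3 lay below siYAP/TAZ 1 and 2 and the groups overlapped, although each knockdown array lay below its own control. The pairs correspond to 4.99-fold, 4.61-fold, 1.69-fold and 3.74-fold lower levels. In the ranking of all 19938 genes by difference within a pair, Olfm4 lay at percentiles 0.115, 0.361 and 4.41 in the siRNA pairs and 0.597 in the shRNA pair, so near the lowest end in 3 of the 4 pairs. The siYAP/TAZ mean was 8.54 ± 1.12, against 10.30 ± 1.99 in siGFP (SD, n = 3 each), and the difference of -1.76 (95% confidence interval -3.88 to 0.35) had a limma adjusted p of 1.00.

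Lgr5 (probe set 10372503) had levels of 6.91, 6.13 and 4.95 in siYAP/TAZ, against 8.57, 8.30 and 5.48 in siGFP. In the shRNA arm it had 6.04 in shYAP/TAZ and 7.11 in shLacZ. Over the 8 arrays Lgr5 and Olfm4 ran in the same order, lowest in siYAP/TAZ 3 and siGFP 3, then in shYAP/TAZ, siYAP/TAZ 2 and siYAP/TAZ 1, and highest in shLacZ, siGFP 2 and siGFP 1. Apart from siGFP 3, each control array was thus above every knockdown array for both genes. The group levels of Lgr5 were 5.99 ± 0.99 in siYAP/TAZ and 7.45 ± 1.71 in siGFP (SD, n = 3 each). Among the 4 groups the order of its level was siYAP/TAZ, shYAP/TAZ, shLacZ and siGFP, and neighbours in this order differed by less than 1 SD of siGFP. The limma difference was -1.45 (95% confidence interval -3.30 to 0.40), with an adjusted p of 1.00.

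**Figure D1:**
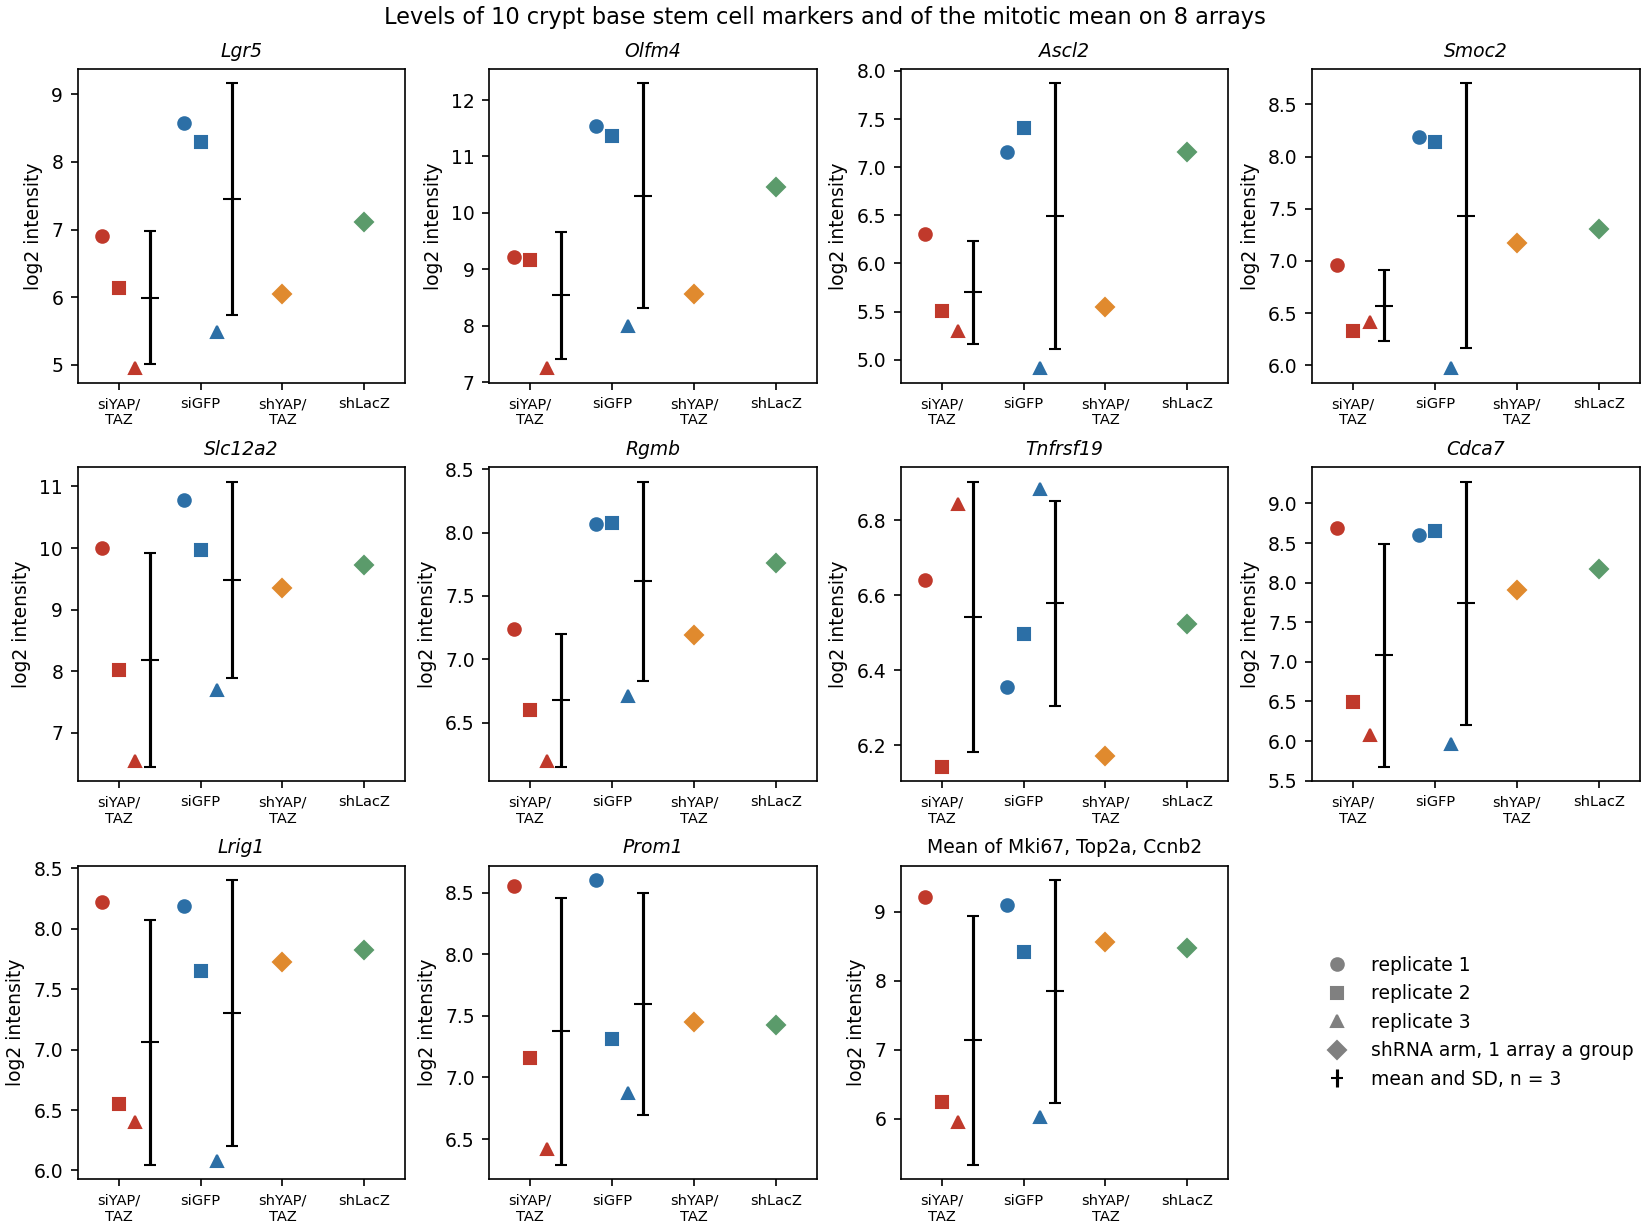
Log2 intensity (vertical axes, each with its own range) of the 10 stem cell markers and of the mean of Mki67, Top2a and Ccnb2 in each group; a symbol is 1 array, bars give the mean and SD of the siRNA groups (n = 3), and the shRNA arm has 1 array a group. Olfm4 lies at 9.21, 9.16 and 7.24 in siYAP/TAZ and at 11.53, 11.37 and 8.00 in siGFP, and replicate 3 of both groups is low for most of the genes shown.

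Ascl2, a basic helix-loop-helix transcription factor that runs the stem cell programme downstream of Wnt, followed Lgr5 and Olfm4 in 3 of the 4 pairs. Its levels were 6.31, 5.50 and 5.29 in siYAP/TAZ, against 7.16, 7.41 and 4.91 in siGFP. The shYAP/TAZ array had 5.54 and shLacZ 7.16. The pair differences were -0.85, -1.90 and 0.38 with siRNA and -1.62 with shRNA, so pair 3, in which both arrays were low, ran the other way. The mean difference in the siRNA arm was -0.79 ± 0.63 (SE; limma adjusted p 1.00). Over the 8 arrays the mean level of Ascl2 lay at percentile 39.2 of all genes, the lowest of the members, and that of Lgr5 at 55.2. In siRNA pair 3 both genes lay below these means, so their differences there are between dim values. Compression of differences near the lowest intensities was not tested.

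The promoter sequences of Olfm4 and Ascl2 are shown because these 2 markers had the lowest differences of all members in the shRNA pair and differed by -1.90 or below in siRNA pair 2. They are the 250 bases before the RefSeq start in GRCm38.p6, on the strand of the gene, at chr14:80000052-80000301 (plus strand) for Olfm4 and chr7:142969265-142969514 (minus strand) for Ascl2. Capitals mark the 1 match found in each, TGGGAA, the core of sites bound by the Notch effector RBPJ, in Olfm4, and CAGGTG, an E-box read on the other strand, in Ascl2.
Olfm4: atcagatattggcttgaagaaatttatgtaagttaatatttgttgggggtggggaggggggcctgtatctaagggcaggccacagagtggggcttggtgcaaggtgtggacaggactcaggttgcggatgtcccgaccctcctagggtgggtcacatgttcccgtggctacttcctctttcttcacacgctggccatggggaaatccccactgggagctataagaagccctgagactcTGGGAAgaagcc
Ascl2: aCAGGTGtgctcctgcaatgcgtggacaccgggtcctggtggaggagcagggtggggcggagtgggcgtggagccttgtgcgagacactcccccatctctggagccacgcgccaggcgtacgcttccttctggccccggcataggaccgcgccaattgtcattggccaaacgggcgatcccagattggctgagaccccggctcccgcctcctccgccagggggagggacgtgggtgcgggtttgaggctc
The Olfm4 match covers bases -12 to -7 and the Ascl2 match bases -249 to -244, counted back from the start.

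In all, 5 motifs were searched on both strands of such 250-base windows. RefSeq windows matched 7 of the 10 members by symbol, with 11 windows in all, since some genes have several starts. Lgr5, Smoc2 and Slc12a2 had no window and were not searched. The TEAD core GGAATG was in 0 of the 11 member windows, and in 12.6% of all 32851 windows. The TCF/LEF cores CTTTGA and CTTTGT were in 1 member window each (Tnfrsf19 and Rgmb), against 13.8% and 16.5% of all windows. TGGGAA was in 3 member windows (Cdca7, Olfm4 and Prom1), against 21.6%, and CACCTG in 4 (Ascl2, Prom1, Rgmb and Tnfrsf19), against 17.2%. These are matches of letters in short windows only.

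Smoc2 and Slc12a2 differed from each other in where they lay lower. Smoc2 encodes a secreted calcium-binding matricellular protein, and its levels were 6.96, 6.33 and 6.42 in siYAP/TAZ, against 8.19, 8.14 and 5.97 in siGFP. It had 7.17 in shYAP/TAZ and 7.31 in shLacZ. Its differences were -1.23 and -1.81 in the first 2 siRNA pairs, 0.45 in siRNA pair 3, which ran the other way, and -0.13 in the shRNA pair. Slc12a2, the basolateral sodium, potassium and chloride cotransporter that loads crypt cells with chloride for secretion, had 9.996, 8.02 and 6.54 in siYAP/TAZ, against 10.77, 9.98 and 7.70 in siGFP. Its level was 9.35 in shYAP/TAZ and 9.72 in shLacZ. Each Slc12a2 knockdown array lay below its own control, with differences of -0.78, -1.95, -1.16 and -0.38, while the siRNA groups overlapped. The siRNA arm differences were -0.86 ± 0.58 for Smoc2 and -1.30 ± 0.96 for Slc12a2 (SE; limma adjusted p 1.00 for both).

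Rgmb, a membrane-anchored coreceptor of BMP ligands, had levels of 7.24, 6.598 and 6.20 in siYAP/TAZ, against 8.07, 8.07 and 6.71 in siGFP. The shRNA arm gave 7.20 in shYAP/TAZ and 7.76 in shLacZ. Its pair differences were -0.83, -1.47, -0.51 and -0.57, a narrower range than those of Lgr5 or Olfm4. Its siRNA arm difference of -0.94 (95% confidence interval -1.97 to 0.09) had the lowest unadjusted p of the 10 members, 0.0692, and an adjusted p of 1.00.

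Cdca7 and Lrig1 had a large difference in siRNA pair 2 only, as the mitotic genes did. Cdca7, a chromatin protein expressed in dividing progenitors, had levels of 8.69, 6.49 and 6.07 in siYAP/TAZ, against 8.60, 8.65 and 5.97 in siGFP. Its level was 7.91 in shYAP/TAZ and 8.18 in shLacZ. The difference of -2.16 in the second siRNA pair stood alone, with 0.09, 0.11 and -0.27 in the other pairs. Lrig1, a transmembrane protein that dampens ERBB receptor signals, had 8.23, 6.55 and 6.40 in siYAP/TAZ, against 8.19, 7.65 and 6.07 in siGFP, and 7.72 in shYAP/TAZ against 7.83 in shLacZ. Its pair differences were 0.03, -1.10, 0.33 and -0.10, again with the second siRNA pair apart from the rest.

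Prom1 and Tnfrsf19 differed little. Prom1 encodes the pentaspan membrane protein CD133, and its levels were 8.55, 7.16 and 6.42 in siYAP/TAZ, against 8.60, 7.31 and 6.87 in siGFP, and 7.45 in shYAP/TAZ against 7.43 in shLacZ. Its pair differences lay between -0.45 and 0.02, although the 8 arrays spanned 2.19 log2 units. Tnfrsf19, the receptor TROY, a Wnt target that binds Lgr5, had 6.64, 6.14 and 6.85 in siYAP/TAZ, against 6.36, 6.50 and 6.88 in siGFP, and 6.17 in shYAP/TAZ against 6.52 in shLacZ. It was the flattest member, with a span of 0.74 over the 8 arrays, at a mean level of percentile 49.9 of all genes. It did not share the low replicate 3 arrays of the other members.

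**Figure D2:**
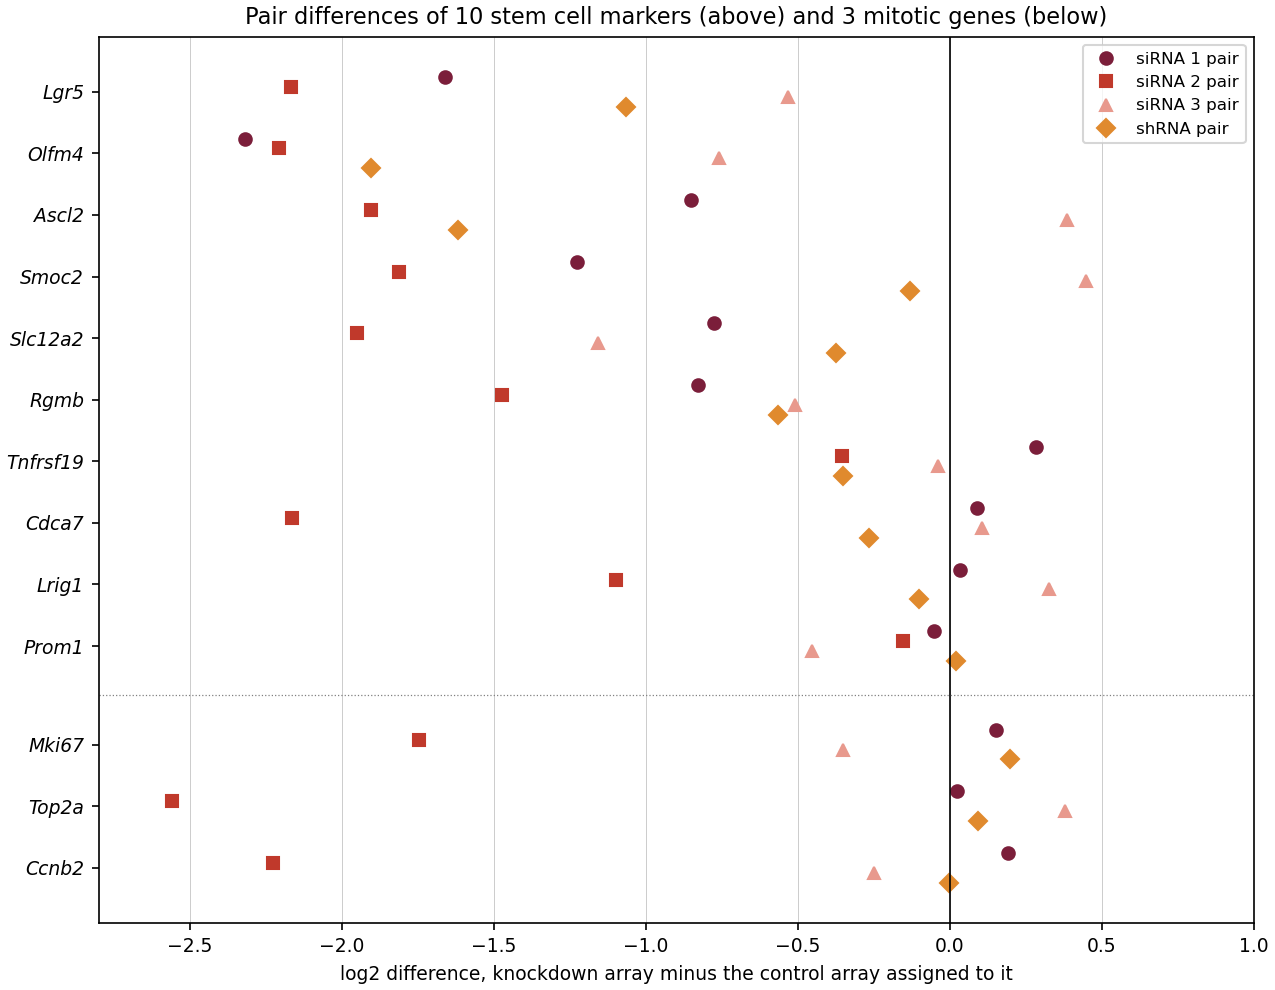
Log2 difference between the knockdown array and its control array (horizontal axis) for 10 stem cell markers and 3 mitotic genes; each symbol is 1 of the 4 pairs. Lgr5, Olfm4, Slc12a2 and Rgmb lie left of 0 in all 4 pairs, and the mitotic genes lie far left of 0 in the second siRNA pair alone, at -1.75 for Mki67, -2.56 for Top2a and -2.23 for Ccnb2.

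Counted over the members, 10 of 10 were lower in the siYAP/TAZ mean, where 53.6% of all genes were, and the median difference was -0.83, against -0.02 over all genes. Lgr5, Olfm4 and Slc12a2 were at least 2-fold lower in the mean, where 0.426% of all genes were. With 1 array left out in turn, the difference lay between -2.91 and -1.11 for Olfm4, between -2.44 and -0.89 for Lgr5 and between -2.20 and -0.47 for Slc12a2, so Lgr5 and Slc12a2 were not 2-fold lower in every case. The siYAP/TAZ and siGFP arrays overlapped for all 10 members (0 of 10 fully lower, against 2.99% of all genes). In the limma fit 0 of 19938 genes (0%) had an adjusted p under 0.05, and 237 (1.19%) had an unadjusted p under 0.05, of which 0 were members. Without the 3 arrays that stand apart, which leaves siYAP/TAZ 1, assumed to vary like siGFP, against siGFP 1 and 2, 6 of 10 members were lower, and 51.6% of all genes. Olfm4 then differed by -2.24 (adjusted p 0.0784) Lgr5 by -1.53 (0.362) and Slc12a2 by -0.38, while Tnfrsf19, Cdca7, Lrig1 and Prom1 were higher by 0.21, 0.06, 0.30 and 0.59.

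Within the pairs, 7, 10 and 6 of 10 members were lower in siRNA pairs 1, 2 and 3, where 53%, 48.9% and 54.5% of all genes were, and 9 of 10 were lower in the shRNA pair, where 52.2% were. At least 2-fold lower were 3, 8 and 1 members in the siRNA pairs and 3 in the shRNA pair, beside 2.34%, 8.36%, 1.66% and 2.76% of all genes. Lower in all 4 pairs were 4 of 10 members, Lgr5, Olfm4, Slc12a2 and Rgmb, and 8.95% of all genes. Without siRNA pairs 2 and 3, which hold the arrays that stand apart, 6 of 10 members were lower in both remaining pairs, Ascl2 and Smoc2 in addition, and 28.8% of all genes.

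The fit over the 4 pairs, with pair as a block, gave narrower intervals than the siRNA arm. Olfm4 had a difference of -1.80 (95% confidence interval -2.40 to -1.19, 3.48-fold lower) with a limma adjusted p of 0.105. Lgr5 had a difference of -1.36 (-1.96 to -0.75, 2.56-fold lower) with a limma adjusted p of 0.219. The differences were -1.07 ± 0.26 for Slc12a2 (adjusted p 0.318), -0.85 ± 0.22 for Rgmb (0.342) and -0.998 ± 0.34 for Ascl2 (0.513), each with its SE. These 5 members had an unadjusted p under 0.05 and were lower, beside 4.7% of all genes, or 7.49% in either direction. The other 5 members lay between -0.68 (Smoc2) and -0.11 (Tnfrsf19), with adjusted p between 0.722 and 0.955.

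In that paired fit 4 of 19938 genes passed the adjusted p, 0.0201%, and 0 of 10 members. The 4 genes, named after their values were seen, were B3galt5 and B3gnt7, which were higher by 3.13 and 2.53 and encode glycosyltransferases, and Olfr165 and Rdh7, with differences of -2.09 and -2.41. Olfm4 crossed the threshold under 5 other settings: 75th percentile centring (adjusted p 0.0423), no normalization (0.0247), a trended robust prior (0.0495), leaving out siRNA pair 3 (0.0474) and leaving out both pairs with arrays that stand apart, which leaves 2 pairs (0.0123). The fit takes siRNA and shRNA as 1 effect, and without the pair block 0 genes passed.

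**Figure D3:**
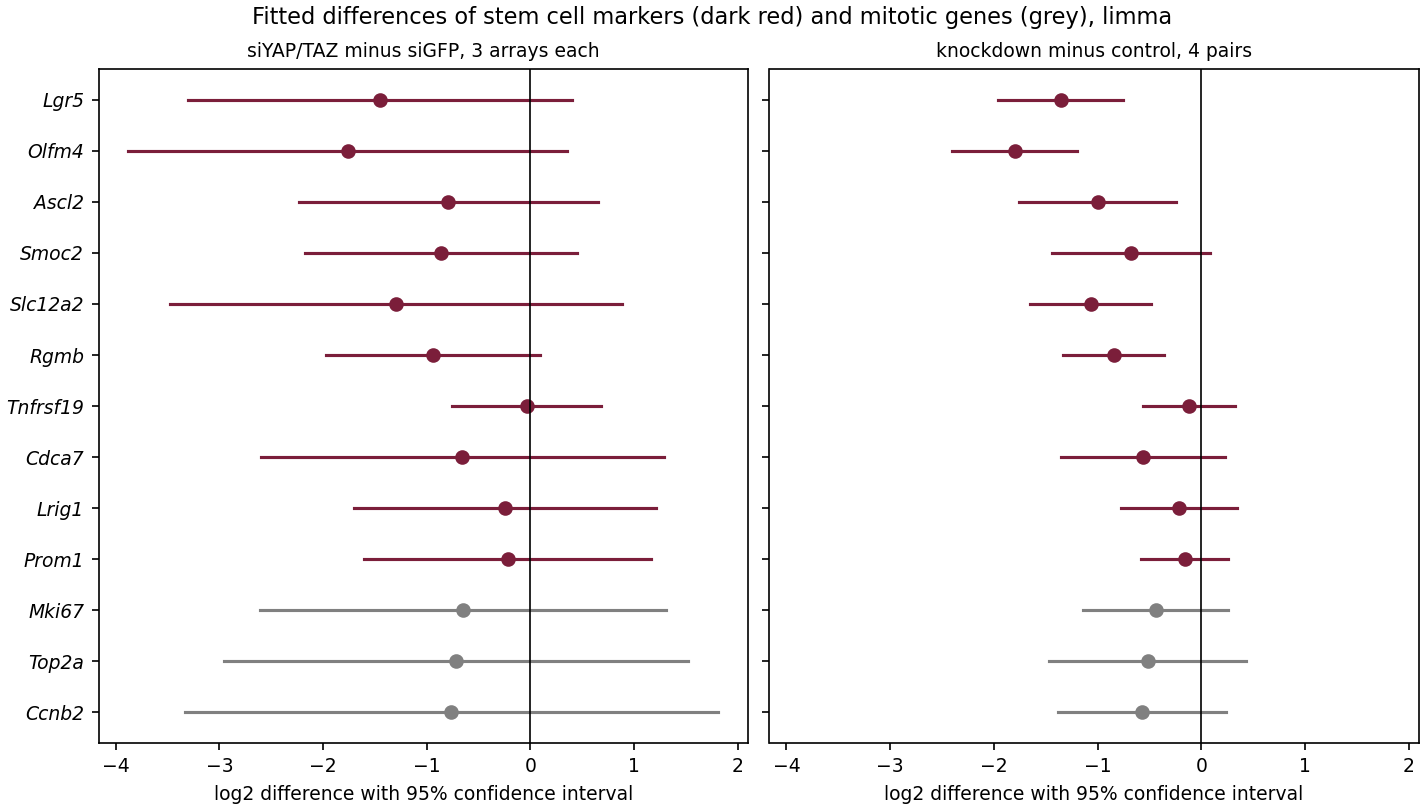
Fitted log2 differences (points) with 95% confidence intervals (lines) for the 10 stem cell markers in dark red and the 3 mitotic genes in grey, for siYAP/TAZ minus siGFP (left) and for the fit of 4 pairs (right). All 10 marker intervals on the left include 0, and on the right those of Lgr5, Olfm4, Ascl2, Slc12a2 and Rgmb lie below 0 before adjustment over all genes.

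Set against the dividing cells, the pairs were of different kinds. The mean of Mki67 (a marker of cycling cells), Top2a (DNA topoisomerase) and Ccnb2 (a mitotic cyclin) was 9.22, 6.25 and 5.95 in siYAP/TAZ, against 9.10, 8.43 and 6.02 in siGFP, and 8.57 in shYAP/TAZ against 8.47 in shLacZ. In siRNA pairs 1 and 3 and in the shRNA pair it differed by 0.12, -0.07 and 0.10, and in siRNA pair 2 by -2.18. In siRNA pair 3 only the mean was level, since Mki67 differed by -0.35, Top2a by 0.38 and Ccnb2 by -0.25. Olfm4 differed from the mitotic mean by -2.44 in siRNA pair 1, -0.69 in siRNA pair 3 and -1.998 in the shRNA pair. Lgr5 differed from it by -1.78, -0.46 and -1.16 in the same pairs. In siRNA pair 2, both differed by about as much as the mitotic genes, with -0.03 for Olfm4 and 0.01 for Lgr5.

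Relative to the mitotic mean, Ascl2 differed by -0.97 in siRNA pair 1 and -1.71 in the shRNA pair, and by 0.27 and 0.46 in siRNA pairs 2 and 3. Smoc2 lay below it chiefly in siRNA pair 1 (-1.35), and Slc12a2 in siRNA pairs 1 and 3 (-0.90 and -1.08). Lower than the mitotic mean were 9, 1 and 5 of 10 members in siRNA pairs 1, 2 and 3 and 10 of 10 in the shRNA pair, beside 66.1%, 0.391%, 47.5% and 63.5% of all genes. The counts in siRNA pairs 1 and 3 and in the shRNA pair thus stand beside large shares of all genes. The member medians were -0.92, 0.32, -0.17 and -0.46 relative to it. Olfm4 alone was lower than the mitotic mean in all 4 pairs, as were 13 of all 19938 genes (0.0652%), with -0.03 in siRNA pair 2. When the probe sets of a gene were averaged, 3 members were so. Among the members and mitotic genes this changes Top2a alone, which has 2 probe sets, the second with levels between 4.52 and 4.91. In siRNA pair 1 and the shRNA pair taken alone, 9 of 10 members were lower than the mitotic mean, and 43% of all genes.

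**Figure D4:**
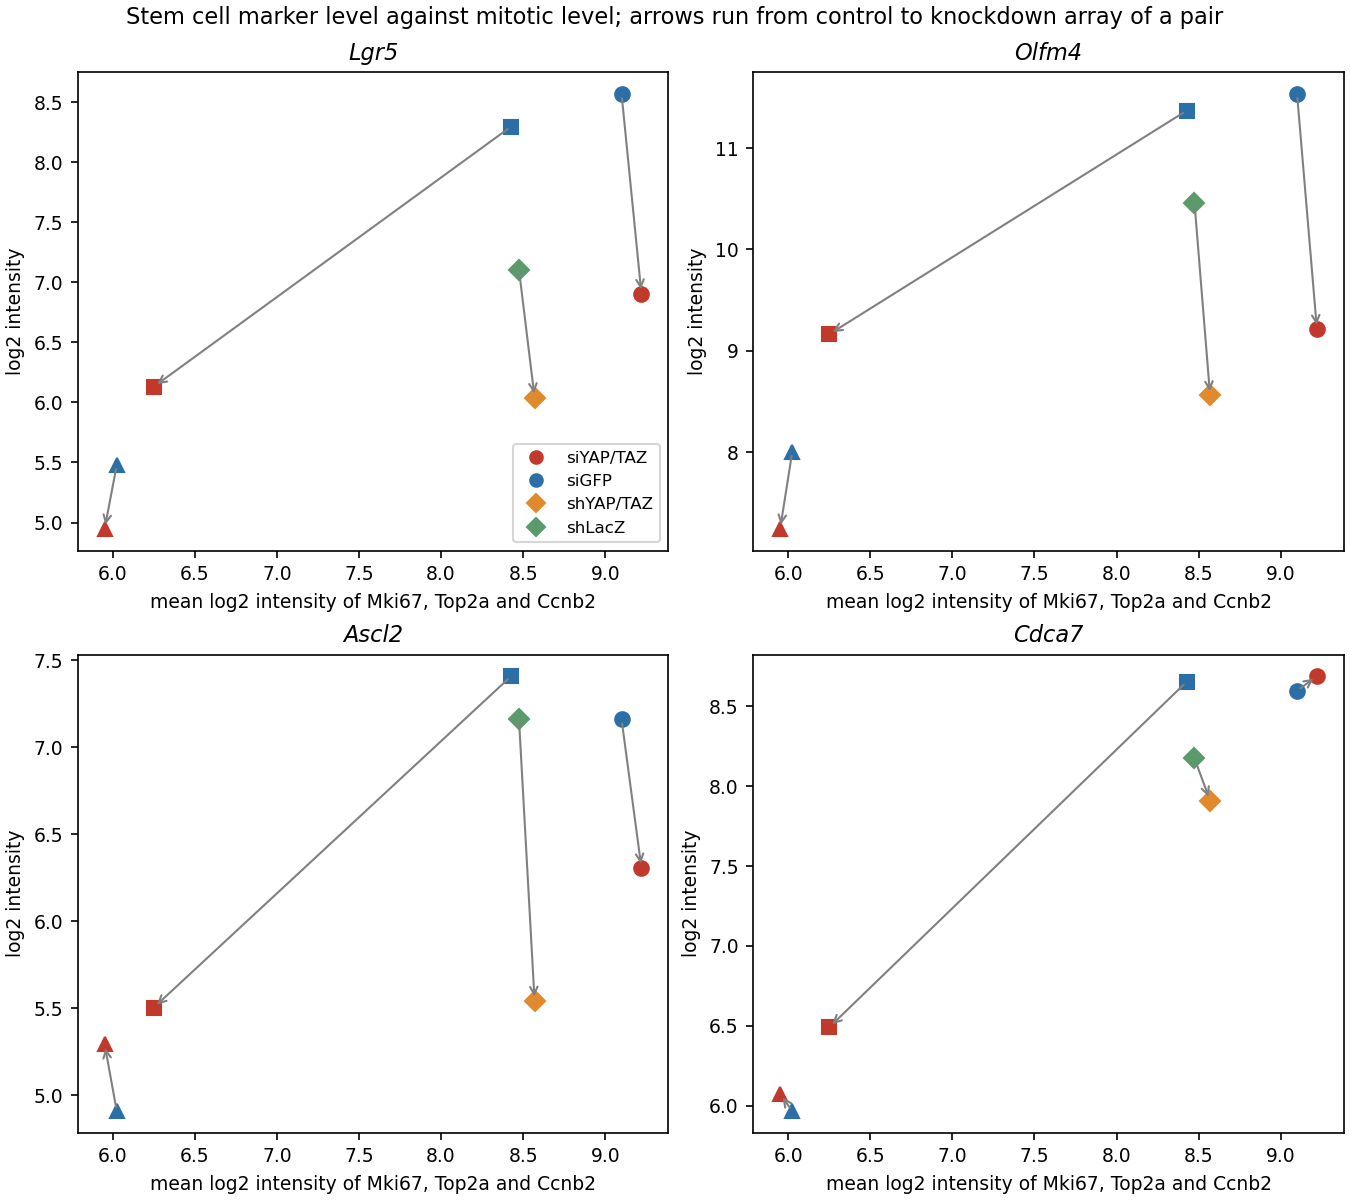
Log2 level of Lgr5, Olfm4, Ascl2 and Cdca7 (vertical axes) against the mean log2 level of Mki67, Top2a and Ccnb2 (horizontal axes); symbols are arrays, with circles, squares and triangles for siRNA replicates 1, 2 and 3, and arrows join the control array to the knockdown array of each pair. The Olfm4 and Lgr5 arrows of siRNA pair 1 and the shRNA pair run almost straight down, with mitotic differences of 0.12 and 0.10, and that of siRNA pair 2 runs along both axes, with a mitotic difference of -2.18.

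Tested over the siRNA arm after the mitotic mean of each array was subtracted, Olfm4 differed by -1.05, Lgr5 by -0.74, Slc12a2 by -0.59 and Rgmb by -0.23. Ascl2 and Smoc2 were close to 0 (-0.08 and -0.15), and Cdca7, Lrig1, Prom1 and Tnfrsf19 were higher by 0.05, 0.46, 0.49 and 0.67. The SE was 1.47 for every gene and includes the spread of the subtracted mean, and the adjusted p lay between 0.916 and 0.981. Of the members, 6 of 10 were lower than the mitotic mean here, and 2% of all genes. By limma the adjusted p was under 0.05 for 0 genes (0%). An unadjusted p under 0.05 was reached by 6 genes (0.0301%), with 0 members among them. With each gene's own spread the SE was 0.65 for Lgr5, 0.89 for Olfm4, 0.37 for Slc12a2 and 0.32 for Cdca7, and no adjusted p of these was below 0.912. Without the 3 arrays that stand apart, 9 of 10 members were lower than the mitotic mean, and so were 85.4% of all genes. Olfm4 then differed from it by -2.70 (adjusted p 0.134) and Lgr5 by -1.98 (0.814). Without siYAP/TAZ 1 alone, Olfm4 differed from it by -0.35 and Lgr5 by -0.16.

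The likeness of 2 genes over the 8 arrays was taken as the mean absolute difference between their log2 levels, each centred on its own mean. The search covered 12723 genes outside the dimmest 33%, and left out genes with placeholder symbols such as those of the Gm and Rik type. The gene nearest to Lgr5 was Olfm4 (0.35), followed by Ascl2 (0.37), Far2 (0.37), Slc16a12 (0.37) and Wee1 (0.38), where the median over all genes searched was 1.10. Nearest to Olfm4 were Lgr5 (0.35), Far2 (0.52), Ascl2 (0.54), Akr1c14 (0.55) and Mptx1 (0.56), beside a median of 1.32. Nearest to Slc12a2 were Csrp2 (0.24), Ifitm2 (0.27), Prps2 (0.28), Clca3b (0.28) and Fads2 (0.29), beside a median of 1.24. The 5 nearest genes of Lgr5 and of Olfm4 thus include other members, and the 5 nearest to Slc12a2 do not. This rests on the cut at 5 genes, since Slc12a2 lay 0.31 from the member Cdca7, nearer than Lgr5 and Olfm4 lay to each other. All points share the same 8 arrays.

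By the same measure the members lay at different distances to the mitotic mean. Cdca7 was nearest (0.32), then Slc12a2 (0.41) and Lrig1 (0.52). Smoc2 (0.74), Lgr5 (0.75), Rgmb (0.75), Prom1 (0.76) and Ascl2 (0.78) lay further off, and Olfm4 (0.95) and Tnfrsf19 (1.35) furthest. Among the members, Smoc2 and Rgmb were closest to each other (0.27), then Cdca7 and Slc12a2 (0.31), Ascl2 and Smoc2 (0.31) and Cdca7 and Lrig1 (0.32).

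Other genes of the crypt base and its signals were described by counts. Of the genes in these lists, 0 passed the adjusted p of limma in any of the 3 fits. Beside the counts of this and the following lists, 53.6% of all genes were lower in the siYAP/TAZ mean and 8.95% in all 4 pairs. Of 18 further crypt base stem cell genes, 15 were lower in the siYAP/TAZ mean (median -0.30), and 6 were lower in all 4 pairs. Arid5b, a chromatin-binding protein, differed by -1.23 ± 0.68 (SE), Vdr, the vitamin D receptor, by -1.17 ± 0.46, Cdk6, a cell cycle kinase, by -1.06 ± 0.56 and Kcnq1, a potassium channel, by -0.95 ± 0.74. Of 12 Wnt feedback and target genes 9 were lower (median -0.11) and 4 were so in all 4 pairs, Axin2, Rnf43, Ephb3 and Sox9, which were also the 4 with the largest differences. Lef1, a transcription factor of the Wnt pathway, was higher in all 4 pairs (0.49, 0.65, 0.08 and 0.30), with a siRNA arm difference of 0.40 ± 0.38 (SE), and Notum, a secreted Wnt inhibitor, differed by 0.27 ± 0.36.

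Axin2, a feedback inhibitor and widely used readout of Wnt signalling, had 6.72, 6.37 and 7.13 in siYAP/TAZ, against 8.11, 7.39 and 7.42 in siGFP, and 6.07 in shYAP/TAZ against 7.12 in shLacZ. All 3 siYAP/TAZ arrays lay below all siGFP arrays, with a difference of -0.90 ± 0.34 (SE; limma adjusted p 1.00). Such a gap was found for 1 of the 12 Wnt genes, for none of the 10 members and for 2.99% of all genes. Rnf43, a ubiquitin ligase that removes Frizzled receptors, differed by -0.88 ± 0.54, Ephb3, a receptor that positions crypt cells, by -0.65 ± 0.69 and Sox9, a transcription factor of crypt cells, by -0.56 ± 0.70. Of 12 R-spondin and Wnt receptor genes, 9 were lower (median -0.22), beside 53.6% of all genes, among them Fzd7 with -0.82 and Lrp6 with -0.61. This list also holds Rnf43 and Znrf3, which are counted among the Wnt feedback genes too.

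Of 17 BMP pathway genes, on whose ligands Rgmb acts, 12 were lower (median -0.17), beside 53.6% of all genes. Neo1, a receptor that binds Rgmb, had 8.80, 7.99 and 8.19 in siYAP/TAZ, against 9.79, 8.82 and 9.03 in siGFP, and 9.03 in shYAP/TAZ against 9.29 in shLacZ. Neo1 was lower in all 4 pairs with no overlap between the siRNA groups, and differed by -0.89 ± 0.37 (SE; adjusted p 1.00). All siYAP/TAZ arrays lay below all siGFP arrays for 3 of the 17 BMP genes and for 2.99% of all genes. Of 10 ERBB receptor and ligand genes, on which Lrig1 acts, 5 were lower and 5 higher (median -0.05), with -0.60 for Erbb3 and 0.56 for Nrg1. The reserve-type stem cell genes gave 2 of 4 lower, with -0.38 for Hopx and Tert, 0.13 for Bmi1 and 0.05 for Clu. Clu, which marks a revival-type stem cell in mouse, was 3.05 higher in shYAP/TAZ than in shLacZ and 1.21 higher in siRNA pair 1, and its other pairs gave -0.46 and -0.60.

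The second siRNA pair stood out in the wider lists of dividing cells too. Of 16 further mitotic genes, 14 were lower in the mean (median -0.40), with pair medians of 0.35, -1.60 and 0.08 for siRNA and 0.02 for shRNA. Of 20 DNA replication genes, 16 were lower (median -0.13). Ccne2, cyclin E2, which starts DNA replication, differed by -1.06 ± 0.32 (SE; adjusted p 1.00) and was lower in all 4 pairs. The members' medians in the pairs were -0.80, -1.86 and -0.25 for siRNA and -0.36 for shRNA.

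Markers of other cells varied over the same arrays. The summed linear intensity of the 10 members was between 826 and 3276 in siYAP/TAZ, between 1071 and 6947 in siGFP, 2130 in shYAP/TAZ and 3691 in shLacZ. For the 18 further stem cell genes the sum was between 4028 and 4360 in siYAP/TAZ and between 6055 and 6584 in siGFP. It was 4321 in shYAP/TAZ and 6349 in shLacZ, while 3 of these 18 genes were higher in the siYAP/TAZ mean. A sum of linear intensities gives most weight to the brightest genes. Taken gene by gene, all siYAP/TAZ arrays lay below all siGFP arrays for 2 of the 18, and for 2.99% of all genes. The sum of 9 Paneth cell genes, the neighbours of the stem cells, lay between 3856 and 14400 in siYAP/TAZ, between 4254 and 15950 in siGFP, and was 8679 in shYAP/TAZ and 13530 in shLacZ. Of these 9, 7 were lower in the siYAP/TAZ mean, with pair medians of -0.02, -1.57 and 0.12 for siRNA and -0.17 for shRNA. In the shRNA pair the mean difference was -0.31 over the Paneth genes and -0.64 over the members, and the summed levels of both lists were lower in shYAP/TAZ. In siRNA pair 2 the Paneth genes were low with the mitotic genes.

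The 8 B and plasma cell markers summed to between 269 and 2373 in siYAP/TAZ, with the highest value in siYAP/TAZ 2, and between 297 and 427 in siGFP. They summed to 238 in shYAP/TAZ and 433 in shLacZ. Their pair medians were -0.03, 3.38 and 1.36 for siRNA and -0.86 for shRNA, and 7 of 8 were higher in the siYAP/TAZ mean. The 9 fibroblast markers summed to between 902 and 2239 in siYAP/TAZ, with the highest value again in siYAP/TAZ 2, and between 1040 and 1913 in siGFP. The 13 enterocyte genes, of which 8 were lower in the mean, summed to between 30430 and 63850 in siYAP/TAZ and between 36550 and 67060 in siGFP. The 7 T cell markers summed to between 467 and 1218 in siYAP/TAZ and between 485.5 and 628.7 in siGFP, and the 7 myeloid markers to between 815.5 and 2134 in siYAP/TAZ and between 1365 and 2415 in siGFP. The part of these cells in the marker differences was not tested.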

How the data were processed

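Total RNA of 8 samples was labelled and measured on 1 Affymetrix array each, per the labels. The authors deposited a linear intensity for each of 28853 probe sets on every array. Background correction and scaling were not given in the sources used here. Median deposited intensities of the arrays lay between 76.4 and 95.5. The lowest deposited intensity was 16.0005; whether this reflects an added constant was not tested, and subtracting 15 was an alternative.

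Intensities were put on the log2 scale and quantile normalized. Platform annotation named 1 gene for 21789 probe sets, several for 1621 (not used) and none for 5443. Symbols were updated through Entrez identifiers for 21698, from a RefSeq gene table. Each of 19938 genes was represented by its probe set with the highest mean. No filter was applied, and the number of arrays limits the precision.

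limma 3.58.1 in R 4.3.3 (lmFit, eBayes) compared siYAP/TAZ with siGFP, the same after subtracting the mean of Mki67, Top2a and Ccnb2 on each array, and knockdown with control over 4 pairs as a block. Benjamini-Hochberg adjustment ran over all genes, with a threshold of 0.05. The shRNA arm, with 1 array a group, has no test. Groups came from the titles and pairs from the descriptions of the control samples. Fits were tested on simulated data.

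The text names the 10 members, the mitotic genes, Yap1 and Wwtr1, up to 4 genes a list by the largest siRNA difference, and the 5 genes most alike to Lgr5, Olfm4 and Slc12a2. The Axin2, Neo1 and Clu values by array or pair, and Lef1, Notum and Ccne2, were picked from those lists after their values were seen. The members and lists were chosen with earlier results of these data known. Promoter sequences are from RefSeq, GRCm38.p6.

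Same-numbered siRNA arrays were checked for pairing. Their deviations from the group means correlated with r of 0.755, -0.130 and 0.571 for numbers 1, 2 and 3, so the numbers were not taken as pairs in the siRNA arm. Of the arrays with different numbers, siYAP/TAZ 2 and siGFP 3, which both stand apart, correlated with r of 0.583, above the value of number 3. The pairs of the 4-pair comparison are those that the labels assign, and its siRNA pairs join these same-numbered arrays. The check therefore bears on every siRNA pair difference and on the 4-pair fit. Number 2 (r -0.130) did not show a shared deviation, and number 3 showed none beyond that between arrays of different numbers.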

Additional observations from a re-analysis of the deposited data

Results flagged for a closer look

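Prom1 was 0.0214 higher in shYAP/TAZ than in shLacZ, while all 3 siRNA pairs were lower in siYAP/TAZ, by -0.05, -0.15 and -0.45. The 2 arms thus differed in sign. The difference between the arms was not tested, since the shRNA arm has 1 array a group, and the value of 0.0214 is small beside the residual SD of 0.75 of Prom1 in the siRNA arm.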

How the results depend on the processing

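In the siRNA arm, 146 of 160 values of members under other settings kept their sign and their side of the threshold, and 14 changed sign, for 4 members. Leaving out 1 array at a time gave -0.19 to 0.16 for Tnfrsf19, -0.86 to 0.20 for Lrig1 and -0.81 to 0.28 for Prom1. It gave -2.91 to -1.11 for Olfm4, -2.44 to -0.89 for Lgr5 and -2.20 to -0.47 for Slc12a2, the weakest without siYAP/TAZ 3 for Olfm4 and Slc12a2 and without siGFP 1 for Lgr5. With array weights Olfm4 was -3.30 and Lgr5 -2.75 (adjusted p 0.104 for both), the median was -1.62 and Tnfrsf19 was 0.19, and Lrig1 and Prom1 were 0.19 and 0.15 with the mitotic level as a covariate. Without the 3 arrays that stand apart, a setting chosen after seeing the data, Tnfrsf19 was 0.21, Cdca7 0.0627, Lrig1 0.30 and Prom1 0.59, 6 members were lower and 38 genes passed. With 1 array left out, 0 to 13 genes passed (13 without siYAP/TAZ 1), 8 to 10 members were lower, and their median was -1.56 to -0.44. The replicate block, with same-numbered siRNA arrays as pairs, gave 1 gene, B3gnt7, named after its value was seen, and SEs of 0.34 for Olfm4, 0.33 for Lgr5 and 0.30 for Slc12a2, with adjusted p of 0.310, 0.519 and 0.563. The other choices of normalization, probe set, filter, constant, prior or weights gave 0 genes.

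Relative to the mitotic genes, 16 of 150 values changed sign, for 6 members. Leaving out 1 array at a time gave -1.81 to -0.35 for Olfm4 and -1.26 to -0.16 for Lgr5, both weakest without siYAP/TAZ 1, and -0.47 to 0.66 for Ascl2, -0.67 to 0.69 for Smoc2, -0.63 to 0.53 for Rgmb, -0.0720 to 1.74 for Tnfrsf19 and -0.14 to 0.29 for Cdca7. It gave 3 to 8 members lower (3 without siYAP/TAZ 1 or siGFP 3) and a median of -0.45 to 0.59. Cdca7 was -0.0545 with all probe sets averaged. Without the 3 arrays that stand apart 37 genes passed, the median of members was -1.06, Tnfrsf19 was -0.24, Cdca7 -0.39 and Lrig1 -0.15. The replicate block gave 0 genes. Array weights gave no value here, because they did not converge.

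In the fit of 4 pairs, 114 of 120 values kept their sign and side of the threshold. Genes passing were 15 with 75th percentile centring, 19 with no normalization, 8 without the dimmest 33% of genes, 2 with 15 subtracted, 12 with a trended robust prior, 0 with no replicate block and 162 without the pairs that hold arrays standing apart. Leaving out siRNA pair 1, 2 or 3 or the shRNA pair gave 11, 26, 7 and 1 genes, with 0 to 1 members. In 5 settings 1 member, Olfm4, passed. Lrig1 was -0.39 to 0.0862 with a pair left out, the highest without siRNA pair 2. Members lower in all pairs numbered 4 to 6. Members lower than the mitotic mean in all pairs numbered 1, but 3 with all probe sets averaged, 1 to 5 with a pair left out (5 without siRNA pair 2) and 9 without siRNA pairs 2 and 3. All 50 shRNA arm values of members moved by less than the siRNA spread. Apart from averaging probe sets, which alters only Top2a among the members and mitotic genes, the causes of these changes were not tested. In the unpaired siRNA arm, with 3 arrays a group, the unadjusted intervals of all 10 members include 0; in the fit of 4 pairs those of 5 members do not.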
